A study of Danio rerio with 32 samples.

Results

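The zebrafish Hox genes were followed through 14 days of muscle cell culture by taking every probe set of the expression table whose single annotated gene symbol began with hoxa, hoxb, hoxc or hoxd and a number. This gave 59 probe sets for 42 genes among the 15502 probe sets that were not controls. Adult zebrafish muscle was the source: dorsal muscle of several fish was pooled, the mononuclear myogenic cells were expanded in growth medium with serum and FGF, and they were then moved to differentiation medium with horse serum. RNA was taken on 6 days, namely 0 and 1, 4 and 7, and 10 and 14, and hybridized to a zebrafish genome array in 2 batches, with no untreated arm. The labels give all samples the same tissue, cell type and media protocols, and the samples differed in day, batch and run. The fish carried an α-actin–RFP transgene, in which a skeletal muscle promoter drives a red fluorescent protein, and the preparation was a mixed primary culture that is not a clone.

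Hox genes encode homeodomain transcription factors that stand in clusters, and their order in a cluster follows the order in which they are used from head to tail. Genes of the low-numbered paralog groups act in the hindbrain and anterior trunk, and those of the high-numbered groups act in the posterior trunk, the tail and the distal fin. Zebrafish have extra clusters from a genome duplication, so that the letter a or b after the number names the copy. In adult tissues of mammals, fibroblasts and other connective tissue cells keep a Hox pattern that marks the place they came from.

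The 31 arrays analysed were 11 of batch 1, all of 1 hybridization run, and 20 of batch 2, from 4 runs; day 0 replicate B of batch 1 was left out. Days 0–1 had 3 arrays in batch 1 and 6 in batch 2, day 4 had 2 and 4, day 7 had 2 and 5, and days 10–14 had 4 and 5. The labels graded 24 of the 31 arrays good and 7 poor. Signals are given here after quantile normalization, in arbitrary units, and changes are differences of log2(signal + 32), which understate the change of low signals. The table holds no detection calls, so a probe set was counted as above background on an array when its signal passed the 95th percentile of 66 probe sets for eye and pancreas genes on that array. It was called above background when this held on at least 16 of the 31 arrays. By this rule 2 of the 66 reference probe sets, for cpa5 and opn1sw2, were themselves above background. At days 0–1 cpa5 read 4257 to 18212 in batch 1 and 824 to 8190 in batch 2. For opn1sw2 these ranges were 458 to 2115 and 116 to 938.

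One array stood apart from its label. On day 14 replicate B of batch 1, graded poor, 46 of the 66 eye and pancreas probe sets were higher than on every other array. The cone opsin gene opn1sw1 read 18212 there and at most 263 on the other arrays, and the pancreatic elastase gene ela2 read 13480 against at most 253. Of 24 skeletal muscle probe sets 11 were also highest on that array, as were 13 of 23 neuron ones. None of 21 leukocyte or 17 fibroblast probe sets was. The background threshold of that array was 9484, and it lay between 97.3 and 425 on the other 30 arrays, so that no Hox probe set could count as above background on it. Counts with and without this array are therefore given. Among muscle genes, desma was above background on 25 arrays and myog on 17, and myod1 on 4.

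Of the 59 Hox probe sets, 12 were above background, where 51.3% of all probe sets passed the same rule. They belonged to 12 genes. This number rests on the threshold, since 2 passed with the 99th percentile of the same reference and 51 with the highest of the Trpn control probe sets. Of the remaining probe sets, 17 were above background on no array and 30 on between 1 and 15 arrays. Paralog groups 9–13 held 8 of the 12, for hoxb9a, hoxc9a, hoxb10a, hoxd10a, hoxa11b, hoxc11a, hoxd11a and hoxc13a, out of 24 probe sets. Groups 4–8 held 2 of 23, for hoxb8a and hoxc8a, and groups 1–3 held 2 of 12, for hoxb3a and hoxc3a. One of the 3 probe sets for hoxc8a passed on 29 of 31 arrays, and 1 of the 2 for hoxb9a passed on 25. Where a gene had several probe sets, its name alone stands below for the one above background.

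**Figure D1:**
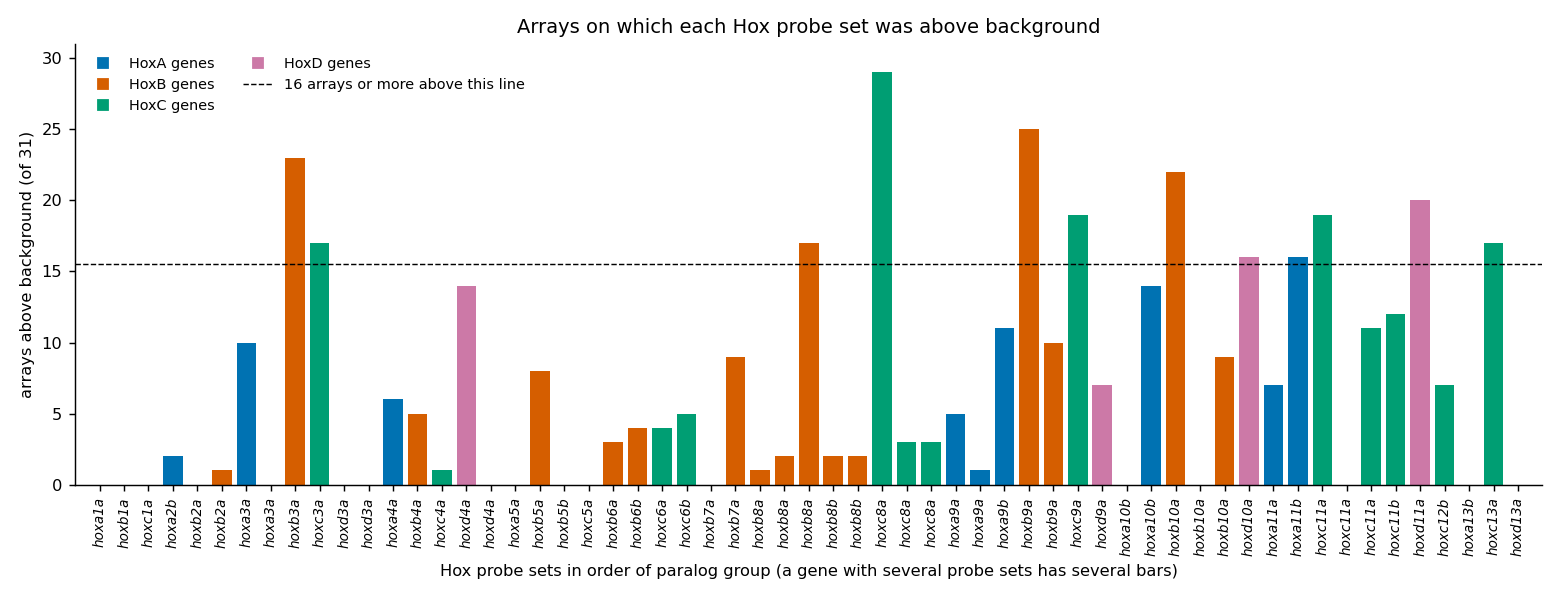
Number of the 31 arrays (vertical axis) on which each of the 59 Hox probe sets was above background, with the probe sets in order of paralog group and coloured by cluster family; the dashed line separates the 12 probe sets with at least 16 arrays from the rest. The bar of hoxc8a reaches 29 arrays, and 17 probe sets have no bar.

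From days 0–1 to days 10–14 more Hox probe sets rose than fell after quantile normalization, and about as many rose as fell with the deposited scaling. In the fit over 31 arrays with run as a covariate, 20 Hox probe sets, for 18 genes, were higher at days 10–14 and 3 were lower at an adjusted p under 0.05 by limma. Over all probe sets tested, 22.2% were higher and 17.0% were lower. The median change of the 59 Hox probe sets was 0.37 on the log2 scale, beside 0.07 over all probe sets. Without day 14 replicate B of batch 1, 20 were higher and 4 lower. With the deposited scaling and no quantile step, in which the median of all probe sets moved to -0.15, 7 Hox probe sets were higher and 6 were lower, where 18.4% of all probe sets were higher and 22.1% lower. Calls in the upward direction thus made up 87.0% of the Hox calls after quantile normalization and 53.8% with the deposited scaling. The 7 that rose under both scalings were hoxc8a, hoxc9a, hoxb9a, hoxd10a, hoxa11b, hoxc11b and hoxd11a. The 6 falls with the deposited scaling were the same 3, hoxb5a, 1 of the probe sets of hoxb2a and the A probe set of hoxb7a. After quantile normalization over 31 arrays hoxb5a changed by -0.37, that of hoxb2a by -0.15 and that of hoxb7a by -0.23, and none passed. Without day 14 replicate B of batch 1 hoxb5a did pass (-0.55, adjusted p = 0.0110 by limma) and was the added fall there. These probe sets of hoxb2a and hoxb7a were above background on no array.

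After quantile normalization the rises lay toward the posterior end of the Hox series. Among the 24 probe sets of paralog groups 9–13, 13 were higher, none was lower, and all 24 had changes above 0 (median 0.61). With the deposited scaling 20 of these 24 were above 0 and 6 were called higher (median 0.40), and 21 were above 0 in batch 1 alone and 23 in batch 2 alone. Of the 24, 16 were not above background by the rule and 5 were above it on no array. Among the 23 of groups 4–8, 6 were higher and 2 lower, with a median of 0.21; with the deposited scaling 1 was higher and 4 lower, and the median was -0.27. Among the 12 of groups 1–3, 1 was higher and 1 lower, with a median of 0.19; with the deposited scaling none was higher and 2 were lower, and the median was -0.21. By cluster family, 9 of 16 HoxC, 5 of 14 HoxA and 3 of 8 HoxD probe sets were higher and none of them was lower. In the HoxB family 3 of 21 were higher and 3 were lower, so that all 3 Hox probe sets called lower were HoxB ones. Of the 12 probe sets above background, 7 were higher and 2 lower. The rule counts arrays of all days, so a rise can itself bring a probe set past it. Among the risers, hoxa11b and hoxc9a were above background on none of the 9 early arrays. The share of rises among all probe sets that pass the rule was not counted. The differences between these groups of genes were not tested.

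**Figure D2:**
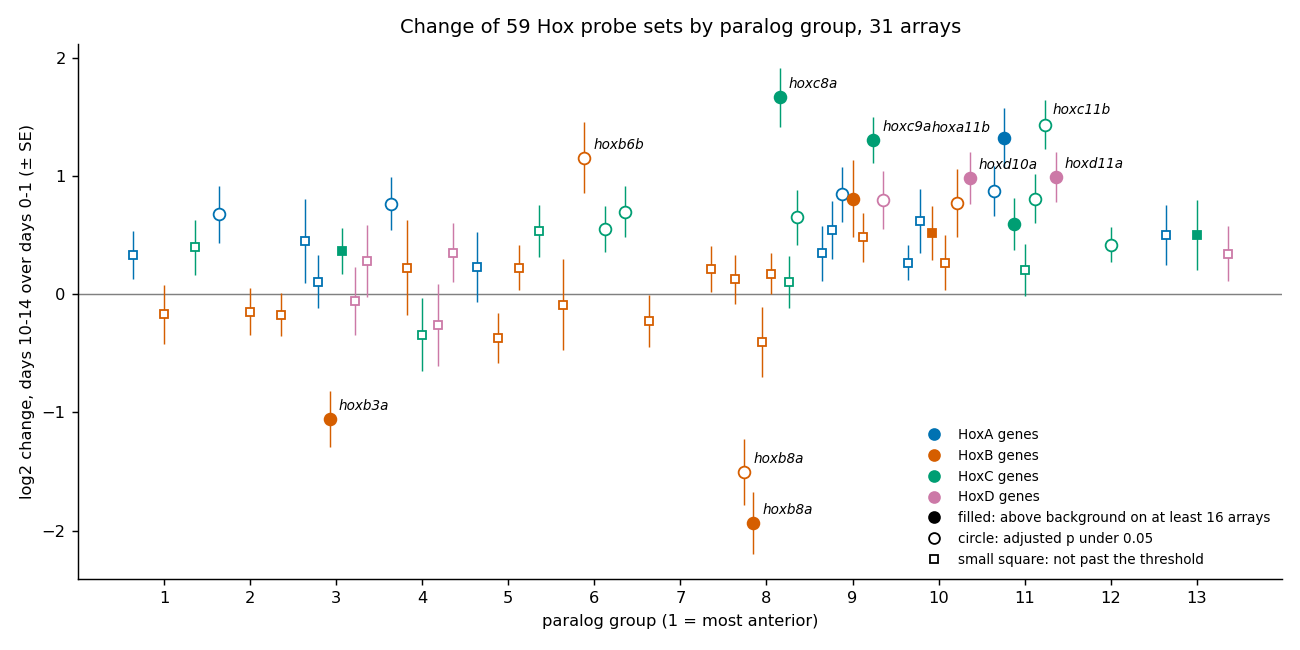
Change of each of the 59 Hox probe sets from days 0–1 to days 10–14 on the log2 scale (vertical axis, points with SE from the fit over 31 arrays) by paralog group (horizontal axis), coloured by cluster family. After quantile normalization all 24 points of groups 9–13 lie above 0, where 20 do with the deposited scaling, and the 3 probe sets called lower, 2 for hoxb8a and 1 for hoxb3a, are HoxB genes of groups 8 and 3.

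The gene hoxc8a, a factor of the trunk, rose from signals that were already above background on most early arrays. At days 0–1 of batch 1 its signals were 277, 161 and 309, at day 4 474 and 995, at day 7 1913 and 1781, and at days 10–14 1393, 1336, 1267 and 1627. In batch 2 the 6 arrays of days 0–1 ran from 562 through a median of 759 to 1164, day 4 read 501, 1564, 1713 and 917, day 7 read 1849, 1669, 2028, 1055 and 1328, and days 10–14 read 1603, 1717, 1357, 1393 and 1379. Every array of days 10–14 was above every array of days 0–1, in each batch and across both. The change was 1.66 ± 0.25 (SE) on the log2 scale (adjusted p = 4.33e-06, limma), 2.39 ± 0.30 in batch 1 and 1.08 ± 0.29 in batch 2. The 3 early arrays of batch 1 were all below the 6 of batch 2, and the batches overlapped at days 10–14, while the comparison of levels between batches over all days did not pass (adjusted p = 0.211). The test of the difference between the batches' changes gave an adjusted p of 0.0682. The other probe sets for the gene share 1 source sequence and differ in the letter S or A of their names; the S one rose by 0.65 ± 0.23 (adjusted p = 0.0282), the A one changed by 0.10 and did not pass, and both were above background on 3 arrays.

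Its neighbour on the chromosome, hoxc9a, rose from signals that were not above background. At days 0–1 it read 53.4, 70.2 and 72.3 in batch 1 and from 56.2 to 151 in batch 2, with a median of 90.8. At days 10–14 it read 294, 326, 338 and 259.6 in batch 1 and 219.9, 213, 172, 227 and 163 in batch 2, and no array of days 10–14 fell within the early range. The day 4 arrays of batch 1 read 263 and 383 and those of batch 2 88.7, 294, 209 and 330.2, so that the 3 arrays of batch 2 graded poor were above the early range and the 1 graded good lay within it. At day 7 the signals were 389 and 467 in batch 1 and 736, 607, 267, 241 and 234 in batch 2, the highest 2 of batch 2 being arrays graded poor. The change to days 10–14 was 1.30 ± 0.20 (adjusted p = 5.41e-06), 1.79 in batch 1 and 1.02 in batch 2. Since hoxc9a was above background on none of the 9 early arrays, its early level is only a bound. The 8 arrays of days 10–14 without day 14 replicate B of batch 1 were compared as a ratio of geometric means. They were at least 1.23-fold above the early thresholds. All 8 nevertheless lay below the highest of these thresholds, 357 on day 1 replicate A of batch 1.

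In paralog group 11, which in vertebrates acts in the posterior trunk and in the limb or fin, hoxa11b, hoxc11b and hoxd11a rose in both batches. For hoxa11b days 0–1 read 60.2, 95.1 and 17.6 in batch 1 and from 34.4 through 69.0 to 82.4 in batch 2, and days 10–14 read 206, 222, 199 and 169.9 and 199, 229.7, 172, 339.7 and 205. The late arrays were again all above the early ones, with a change of 1.32 ± 0.25 (adjusted p = 0.000102). By the same ratio of means it was at least 1.14-fold above the early thresholds. All 8 of the late arrays so compared were again below the highest of them, 357. Its day 7 arrays read 229.9 and 292 in batch 1 and 219, 528, 192, 235 and 174 in batch 2, all above the early range.

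For hoxc11b days 0–1 read 9.35, 7.82 and 26.6 in batch 1 and from 8.78 through 41.1 to 73.8 in batch 2, and days 10–14 read 143, 134, 136 and 103 and 141, 149, 143, 66.9 and 186. Only day 14 replicate A of batch 2, graded poor, fell within the early range. The change was 1.43 ± 0.21 (adjusted p = 3.25e-06). The probe set was above background on 12 arrays in all and on none of the early ones, and the comparison with the early threshold gave no fold above 1.

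The HoxD pair hoxd10a and hoxd11a, which stand side by side in their cluster and take part in posterior trunk and fin patterning, also rose. For hoxd11a days 0–1 read 87.9, 175 and 153 in batch 1 and from 142 through 170.1 to 253 in batch 2, and days 10–14 read 304, 221, 282 and 233 and 459, 542, 382, 327 and 519. Late and early arrays did not overlap within either batch, although the late arrays of batch 1 overlapped the early ones of batch 2. The change was 0.99 ± 0.21 (adjusted p = 0.000447), 0.80 in batch 1 and 1.11 in batch 2.

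For hoxd10a days 0–1 read 90.8, 251 and 64.5 in batch 1 and from 59 through 137 to 164 in batch 2, and days 10–14 read 256, 271, 309 and 243 and 331, 262, 231, 261 and 255. Batch 2 did not overlap, and in batch 1 day 1 replicate A lay within the late range. The change was 0.98 ± 0.22 (adjusted p = 0.000637), 0.99 in batch 2 (adjusted p = 0.0141) and 1.01 in batch 1, where it missed the threshold (adjusted p = 0.0513).

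The gene hoxb8a, which patterns the trunk and, in mice, is also expressed in blood progenitors, fell. It read 474, 423 and 452 at days 0–1 of batch 1, 283 and 126 at day 4, 109.8 and 95.4 at day 7 and 104, 99.9, 86.9 and 149 at days 10–14. In batch 2 it read from 232 through 409 to 811 at days 0–1, 215, 127.7, 179 and 44.7 at day 4, 25.5, 77.7, 156, 164 and 159 at day 7 and 153, 108, 106, 7.68 and 114 at days 10–14. All late arrays were below all early arrays in each batch. It was above background on 8 of the 9 early arrays and, without day 14 replicate B of batch 1, on 2 of the 8 late ones. The change was -1.94 ± 0.26 (adjusted p = 1.15e-06), -1.78 in batch 1 and -2.04 in batch 2.

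The S probe set of another hoxb8a sequence fell by 1.5 (adjusted p = 8.91e-05), and it was above background on only 2 arrays, both of days 0–1 of batch 1. The A probe set of that sequence changed by 0.12 and did not pass. The neighbour of hoxb8a, hoxb9a, rose by 0.81 ± 0.32 (adjusted p = 0.0472), from 222, 255 and 181 to 960.4, 576, 649 and 628 in batch 1, without overlap. In batch 2 the hoxb9a signals overlapped, from 381 to 920 early and 833, 869, 890.0, 481 and 689 late, and the change of 0.42 did not pass. The call on hoxb9a was lost on leaving out any 1 of 21 of the 31 arrays, with an adjusted p of up to 0.119, day 14 replicate B of batch 1 among them (adjusted p = 0.0577).

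The other Hox gene that fell was hoxb3a, a gene of the hindbrain and anterior trunk. Days 0–1 read 241, 709.6 and 415 in batch 1 and from 266 through 399 to 861 in batch 2, and days 10–14 read 198, 156, 176 and 245 and 159, 251, 290.0, 100.4 and 143. The groups overlapped by 1 array on each side, day 0 A and day 14 B in batch 1 and day 1 C and day 10 C in batch 2. The change was -1.06 ± 0.24 (adjusted p = 0.000703), -1.01 in batch 1 and -1.11 in batch 2, and it was already -1.02 at day 4 (adjusted p = 0.00304).

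**Figure D3:**
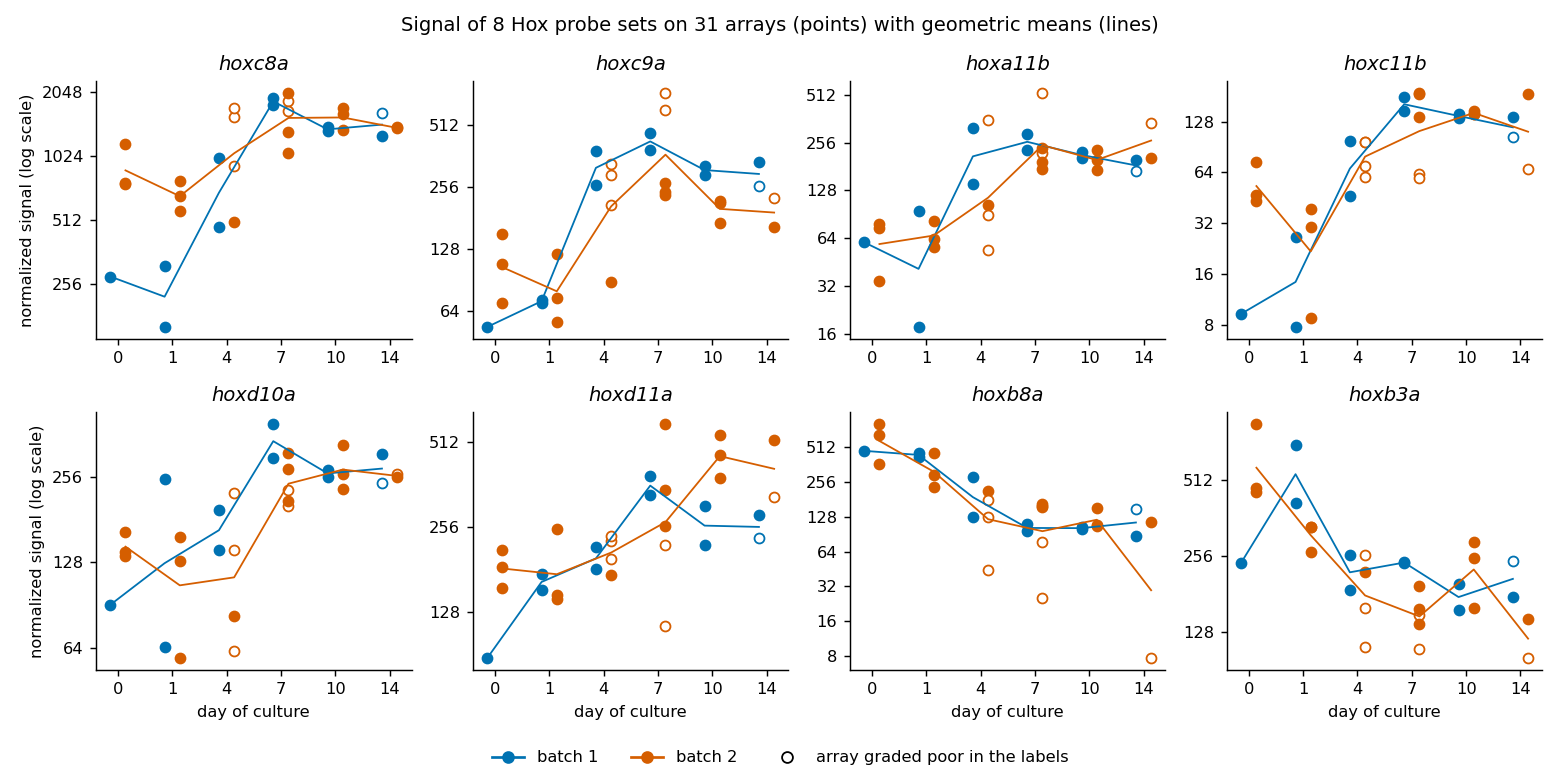
Quantile normalized signal (vertical axes, log scale) of 8 Hox probe sets on each of 31 arrays by day of culture, with batch 1 in blue and batch 2 in orange, open points for arrays graded poor, and lines through the geometric mean of each day. The 6 genes hoxc8a, hoxc9a, hoxa11b, hoxc11b, hoxd10a and hoxd11a lie higher at days 10–14 than at days 0–1, and hoxb8a and hoxb3a lie lower.

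The remaining 4 probe sets above background changed less or did not hold. The gene hoxc11a rose by 0.59 ± 0.22 (adjusted p = 0.0314), and the call was lost on leaving out day 1 replicate B of batch 1 or day 10 replicate A or B of batch 2, with an adjusted p of up to 0.110. The gene hoxb10a changed by 0.52 ± 0.23 and missed the threshold over 31 arrays (adjusted p = 0.0757), passed without day 14 replicate B of batch 1 (adjusted p = 0.0440), and passed in batch 1 alone with 1.09 (adjusted p = 0.0245). In batch 1 its early arrays read 70.0, 116 and 89.4 and its late arrays 248, 316, 250.1 and 135, while batch 2 was already between 206 and 416 at days 0–1. The values were 0.37 for hoxc3a (adjusted p = 0.139) and 0.50 for hoxc13a (adjusted p = 0.192). For hoxc13a the direction differed by batch, with -0.39 in batch 1 and 1.11 in batch 2, and that difference did not pass (adjusted p = 0.101); the batch 2 change passed alone (adjusted p = 0.0266).

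The other 13 calls upward were on probe sets above background on fewer than 16 arrays, and none was above background on any early array. The threshold itself differed by day. In batch 1 it was 199 to 357 at days 0–1 and, without day 14 replicate B, 97.3 to 110 at days 10–14. In batch 2 it was 117 to 234 and then 108 to 237. For all 13 the comparison with the early thresholds gave no fold above 1. They were hoxc11b, described above, and 12 more. Those of posterior groups were hoxa9b (0.84), hoxd9a (0.80), a second probe set of hoxb10a (0.77), hoxa11a (0.87), a second probe set of hoxc11a (0.81) and hoxc12b (0.42). Those of middle and anterior groups were hoxb6b (1.15), hoxc6b (0.70), hoxc6a (0.55), hoxa4a (0.76), the S probe set of hoxc8a (0.65) and hoxa2b (0.68). None of these 12 passed with the deposited scaling.

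With each batch fitted alone, 10 Hox probe sets were higher and 3 lower in batch 1 alone, where 16% of all probe sets were higher and 11.7% lower. Without day 14 replicate B, batch 1 gave 11 higher and 3 lower. In batch 2 alone, 12 were higher and 3 lower, against 12.9% and 12.1% of all probe sets, and its arrays graded good gave 14 and 2. The batches share no arrays. The calls common to both were 5 rises, for hoxc8a, hoxc9a, hoxa11b, hoxc11b and hoxd11a, and 3 falls, on 2 probe sets for hoxb8a and 1 for hoxb3a. The share of all probe sets called in both batches was not counted. By another measure, early and late arrays without overlap in each batch, 5 Hox probe sets rose and 1 fell. By that measure 6.53% of all probe sets rose and 4.01% fell. Of the 59 probe sets, 41 changed in the same direction in both batches. Pearson's r between the batches' changes was 0.57 across the 59 probe sets, which are not independent replicates. Neither value was computed over all probe sets, so neither can be read as particular to Hox genes.

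The change differed between batches at an adjusted p under 0.05 for 1 Hox probe set, that for hoxc6b, against 5.39% of all probe sets. It read 13.8, 38.3 and 22.7 at days 0–1 and 112, 125, 159 and 72.5 at days 10–14 of batch 1. In batch 2 the early arrays lay between 29.9 and 74.1 and the late ones read 86.8, 67.8, 76.6, 44.1 and 64.5. The change was 1.38 in batch 1, without overlap, and 0.08 in batch 2, and the batch 2 change was lower by 1.30 (adjusted p = 0.0250). Of the arrays compared, hoxc6b was above background only on day 10 A and B and day 14 A of batch 1. It was above background on no early array and on no array of batch 2. The comparison thus rests mostly on signals below background, and it does not give the size of a difference in expression. Comparing levels, none of the 59 was higher in batch 2 and 2 were lower, the S probe set for hoxb8b (-0.79) and the S probe set of the hoxb8a sequence not above background (-0.86), against 8.73% and 7.00% of all probe sets. The count of 2 became 9 with no block for run and 9 in good arrays. The share of all probe sets called under these settings was not counted, so the larger counts cannot be read as particular to Hox genes. Batch 1 was a single run, so that batch and run cannot be told apart there.

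**Figure D4:**
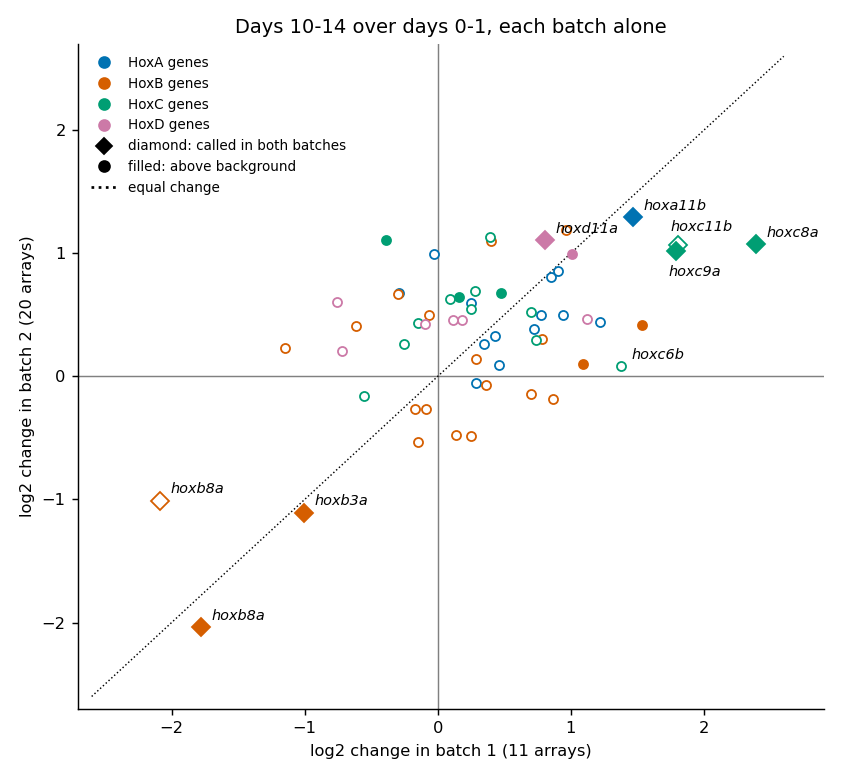
Change of the 59 Hox probe sets from days 0–1 to days 10–14 on the log2 scale in batch 1 (horizontal axis, 11 arrays) and in batch 2 (vertical axis, 20 arrays), each fitted alone; diamonds mark the 8 probe sets called in both batches in the same direction. The 5 rising diamonds are hoxc8a, hoxc9a, hoxa11b, hoxc11b and hoxd11a, the 3 falling ones are hoxb8a and hoxb3a, and hoxc6b lies far along the batch 1 axis only.

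The days between were each compared with days 0 and 1 pooled. Of the day 4 arrays of batch 2, B, C and D were graded poor and A good. There hoxa11b read 103 on A and 89.8, 53.6 and 355 on B, C and D. At day 4, 6 Hox probe sets were above days 0–1 and 3 below, where 13.7% and 11.8% of all probe sets were. The 6 were hoxc9a (1.22), the second probe set of hoxc11a (1.16), hoxa11b (1.03), hoxc11b (0.84), hoxc8a (0.70) and hoxa1a (0.69), and the 3 below were the same probe sets of hoxb8a and hoxb3a that fell later. At day 7, 25 were above and 3 below, where 19.4% and 14.9% of all were, with hoxc9a at 2.14, hoxc8a at 1.91 and hoxa11b at 1.63. In batch 2 only day 7 A and B, graded poor, shared a run with arrays of days 0–1. Day 7 C, D and E, graded good, were of a run without early arrays, linked to the others only through day 14 B. With run as a covariate the batch 2 part of this comparison thus leans on the poor arrays. For hoxc9a those read 736 and 607, and the good ones 234 to 267. Of the 12 probe sets above background, 7 were above and 2 below at day 7, as many as at days 10–14. Of the 20 probe sets higher at days 10–14, 17 were higher at day 7 as well. The exceptions were hoxb9a, hoxd11a and hoxa2b. Both comparisons use the same arrays of days 0–1, so they are not independent, and the share over all probe sets was not counted. The 8 higher at day 7 only were hoxb10a (0.72), hoxc3a (0.83), 1 probe set of hoxa3a (1.34), the second of hoxb9a (0.86) and, above background on no array, hoxa1a (0.65), hoxc1a (0.75), 1 probe set of hoxd4a (0.82) and hoxd13a (0.83). Day 4 against day 7 was not tested. In the F test over the 6 days, which assumes no course, 18 Hox probe sets differed, where 34.9% of all probe sets did.

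Arrays graded poor held part of these intermediate values. On 5 poor arrays of batch 2 (day 4 B and D, day 7 A and B, day 14 A) the background threshold was 237 to 425. On these 5 arrays 5 Hox probe sets, chosen after their values were seen, were above all other arrays but the day 14 B array of batch 1, which was not compared. The share of all probe sets that did the same was not counted, so this number cannot be called unusual. For 1 of the probe sets of hoxa3a the 5 arrays read from 481 to 1026 and the other 25 from 65.1 to 199.9, and for hoxb4a 274 to 648 and 14.0 to 91.5. The others were hoxa5a, hoxb6a and the second probe set of hoxc11a. With arrays graded good in both batches, 23 Hox probe sets were higher and 4 lower at days 10–14, where 25% and 18.4% of all probe sets were, and 19 of the 20 rises were among them.

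Probe sets of the same gene did not always move together, since 13 genes had several and these took up 30 of the 59. In 8 pairs the probe sets came from the same database sequence and their names differed in the letter A or S. In the hoxb8a pair the S name also carries an added suffix s, which the A name lacks. In 4 of the 8 the S probe set alone was called, for hoxb8a, hoxb10a, hoxc11a and hoxc8a, in no pair was the A one alone called, and in 4 neither was. No source used here states which letter matches the messenger RNA strand of each gene. Of the probe sets above background, those for hoxc8a, hoxd11a, hoxb9a, hoxb10a, hoxc11a and hoxc13a carry the letter A, and the others carry S.

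Cell type markers moved over the same days, and in whole cultures fewer cells of a type and less RNA per cell cannot be told apart. Of 21 leukocyte probe sets, 15 fell and 1 rose, with a median change of -2.38, where 22.2% of all probe sets rose and 17.0% fell. Their summed signal, without the day 14 B array of batch 1, was 61156 to 125078 at days 0–1 and 4920 to 33015 at days 10–14 in batch 1, and 54880 to 96034 and 3740 to 14560 in batch 2. Both ptprc, the common leukocyte antigen gene, and spi1b, a myeloid transcription factor gene, were above background on 23 arrays. Their lowest signals, 28.5 for ptprc and 78.1 or 49.9 by probe set for spi1b, were below the lowest background threshold of 97.3.

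Of 17 fibroblast probe sets, 8 rose and 1 fell, with a median of 0.83. Their sums, again without the day 14 B array of batch 1, were 51656 to 110922 and then 112799 to 147873 in batch 1. In batch 2 they were 30123 to 126043 and then 148926 to 207250. Of 23 neuron probe sets, 1 rose and 4 fell, a share of falls near that of all probe sets. Without the day 14 B array of batch 1, their sums were 5356 to 7881 and then 1749 to 2202 in batch 1. In batch 2 they were 4167 to 6467 and then 2880 to 5897. On the day 14 B array of batch 1 the neuron sum was 17367, and the fit behind these counts held that array. The part of these cell types in the Hox changes was not tested. In batch 1 the unscaled mean signal also rose with day, from 21.4–49.5 at days 0–1 to 122–158 at days 10–14, and the GAPDH 3′ to 5′ ratio went from 1.74–2.43 to 1.26–1.39. In batch 2 both overlapped, with ratios of 3.34–9.72 and 2.52–12.

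Partners of Hox proteins were measured on the same arrays. Among the TALE homeodomain cofactors, which bind DNA together with Hox proteins, 4 of 16 probe sets rose and none fell, where 22.2% of all probe sets rose and 17.0% fell. They were pbx2 (1.1, adjusted p = 2.56e-05), pbx4 (1.13, adjusted p = 0.00122), 1 of the probe sets of meis1a (0.79, adjusted p = 0.00424) and meis1b (0.79, adjusted p = 0.00708). All 4 were above background on at least 16 arrays, and none passed in both batches alone. In batch 1 the calls were on pbx2 and pbx4 and in batch 2 on meis1a and meis1b, and 1 of the probe sets of pknox2 fell by 0.87 in batch 1 alone (adjusted p = 0.0386). The other meis1a probe set, above background on 4 arrays, changed by 0.57 and did not pass (adjusted p = 0.0575, limma). Without day 14 replicate B of batch 1, a probe set of pbx1a that was above background on no array was lower (-0.61, adjusted p = 0.0261, limma). Of the 6 probe sets for Cdx, Evx and ParaHox genes, upstream regulators and relatives of Hox genes, none rose and 1 fell, cdx4 (-0.79, adjusted p = 0.000383), and none of the 6 was above background.

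Among the Polycomb and Trithorax genes, which keep Hox genes silent or active, 5 of 31 probe sets rose and 7 fell, where 22.2% and 17.0% of all probe sets did. The 4 with the smallest p were kdm6ba, a histone demethylase gene that opposes Polycomb (-2.53, adjusted p = 2.02e-07), bmi1b (1.17, adjusted p = 5.51e-05), phc1 (0.82, adjusted p = 0.000183) and 1 of the probe sets of pcgf5b (-1.21, adjusted p = 0.000225). The last 3 are subunit genes of Polycomb repressive complexes. The changes of kdm6ba and phc1 passed in each batch alone. Of the 7 falls, that on 1 probe set of ezh2 was not called without day 14 replicate B of batch 1 (adjusted p = 0.0616, limma). For bmi1b the batch 1 value was 0.81 (adjusted p = 0.0536) and for this pcgf5b probe set it was -0.98 (adjusted p = 0.0716). The other pcgf5b probe set, above background on 2 arrays, changed by -0.10 over 31 arrays and did not pass (adjusted p = 0.807, limma).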

How the data were processed

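Zebrafish myogenic cells of days 0 to 14 were hybridized to Affymetrix zebrafish arrays. The authors deposited linear signal intensities of 15617 probe sets on 32 arrays, made with MAS5 per the labels, in which every array had been scaled to a trimmed mean of 500; the labels give a scaling target of 500 for batch 1 and 1500 for batch 2. How precise the values are depends on how many arrays a group has. The study's own analysis started from RMA values, which were not used here. The annotation gave 1 gene symbol to 10795 probe sets, several to 135 and none to 4572; none was named from a probe set with several. Which genes are neighbours was read from RefSeq (assembly GRCz12tu).

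From these values 115 controls were removed, the arrays were brought by quantile normalization to the mean quantiles of the 10 good arrays of batch 1, and limma 3.58.1 (R 4.3.3; two-sided tests after eBayes) was run on log2(signal + 32), with Benjamini-Hochberg adjustment over 15502 probe sets and an adjusted p under 0.05 as a call. The fit had 4 day groups with hybridization run as covariate (23 residual degrees of freedom), 7 in batch 1 alone and 13 in batch 2 alone. The batch comparison took run as a random block. The scripts were tested on simulated data. The background reference listed 142 eye and pancreas genes, of which 58 were matched by 66 probe sets.

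The Hox members and the gene lists were chosen with earlier results of these data known. Named were all Hox probe sets above background, or called at days 10–14 or in the F test over days, and of each other list up to 4 called members with the smallest p. The study describes replicates A and B of most days as biological, the labels give letters only, and neither says whether each was a separate isolation, so that p-values may measure technical spread. Replicate letters did not pair the arrays of batch 1 across days, as given under the dependence on processing. Alternatives were the deposited scaling, offsets of 8 and 128, a filter on background, array grade, covariates and leaving out each array. Arrays left out in view of the data are named where used.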

Additional observations from a re-analysis of the deposited data

Results flagged for a closer look

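In the 2 groups large enough for the test of extreme values, day 4 and day 7 of batch 2, 2 of 52 tests over 26 Hox probe sets found 1 array far from the others; chance gives about 1 in 20. For hoxa11b day 7 replicate B of batch 2, graded poor, read 528, and the other 4 arrays read 174 to 235. For hoxc13a day 7 replicate A of batch 2, graded poor, read 84.1, and the other 4 read 212 to 296.

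The change of hoxc6b differed between the batches in the interaction test of limma, with a batch 2 change minus batch 1 change of -1.30 on the log2 scale (adjusted p = 0.0250). It was above background on 5 arrays, all of batch 1, and on no early array, so that the values compared lie mostly below background. The difference was not called without day 14 replicate A of batch 1, and its cause was not tested.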

How the results depend on the processing

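The named changes to days 10–14 were recomputed 1104 times, over all probe sets and alternatives. Of these, 985 kept their direction and side of the threshold, 107 lost the call, 10 gained it and 2 changed sign. The calls on hoxc8a (the probe set above background), hoxc9a, hoxa11b, hoxc11b, hoxd11a, hoxb3a and 2 probe sets of hoxb8a held under all alternatives run, each array left out included; that on hoxd10a was lost only in batch 1 alone and in its good arrays. Calls lost on leaving out 1 array, other than those given for hoxb9a and hoxc11a, were on hoxa2b (0A, 1A and 14A of batch 1, 0C and 10C of batch 2), the second probe set of hoxb10a (0A and 1B of batch 1, 0C, 1C, 10A, 14A and 14B of batch 2), hoxc12b (1C and 10A of batch 2), hoxc6a (1A of batch 1, 1C and 10A of batch 2) and the S probe set of hoxc8a (0A and 10B of batch 1, 0C, 1C and 10A of batch 2). The 2 changes of sign were hoxc13a at -0.39 in batch 1 alone and -0.32 in its good arrays.

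With the deposited scaling 7 Hox probe sets were higher at days 10–14 and 6 lower, 1 differed between batches in level and 4 in change. With the filter on background 7 were higher, 9 were called at day 7 and 8 in the F test, since fewer were tested. In batch 1 alone 10 were higher, 2 called at day 4 and 16 at day 7, and in its good arrays 11, 2 and 16. In batch 2 alone 12 were higher and 17 called at day 7. The level difference between batches gave 1 at an offset of 8, 1 at an offset 4 times the one used, 9 with no block for run and 9 in good arrays; apart from the smaller sets of probe sets and arrays, the cause was not tested. For these level differences the share of all probe sets called was not counted. The 99th percentile of the reference left 2 Hox probe sets above background and the highest Trpn control 51.

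Leaving out 1 array at a time gave 14 to 23 higher, 3 to 4 lower, 8 to 17 called at day 4, 21 to 31 at day 7, 14 to 22 in the F test and 0 to 2 for the change between batches. The 17 came without day 4 A of batch 2, the 0 without day 14 A of batch 1, and the 2 without 1B or 14B of batch 1 or 1B or 4A of batch 2. With the replicate block, 19 were higher, 3 lower, 8 called at day 4, 24 at day 7 and 14 in the F test, although the deviations of same-lettered arrays of batch 1 correlated at only -0.33 to 0.07 over 10 pairs of days. With the background threshold of 97.3 to 425 on 30 arrays, changes below it could not be sized.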

Other observations

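Other transcription factors of positional identity were measured by 58 probe sets for 48 genes, of which 3 rose and 7 fell from days 0–1 to days 10–14, where 22.2% and 17.0% of all probe sets did. The 4 with the smallest p passed in each batch alone. Without day 14 replicate B of batch 1, 1 probe set each of zic2a (-0.98, adjusted p = 0.000819, limma) and emx2 (-0.88, adjusted p = 0.0243, limma) was also lower. The homeobox gene prrx1a, a factor of limb and fin mesenchyme, rose by 1.96 ± 0.25 (SE, adjusted p = 4.98e-07 by limma). Its signal was 370 to 668 at days 0–1 and 2044 to 2614 at days 10–14 in batch 1 without the day 14 B array, and 571 to 1225 and 2342 to 4744 in batch 2, without overlap. The T-box gene tbx15 (1 of its 2 probe sets), which patterns the skin and limb skeleton in mice, rose by 1.47 ± 0.18 (adjusted p = 2.37e-07). The zinc finger gene egr2b, known from hindbrain segments and also from macrophages and Schwann cells in mammals, changed by -2.64 ± 0.30 (adjusted p = 8.65e-08). The homeobox gene ved changed by -5.42 ± 0.53 (adjusted p = 7.09e-09), and it was above background on 8 arrays. The gene prrx1a also stands on the fibroblast list, and the leukocyte list fell over the same days; their part in these changes was not tested.

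Among the markers of other cell types over the same days, 0 of 4 endothelial probe sets rose and 3 fell (median change -2.30), 1 of 8 glial ones rose and 5 fell (median -1.92), and 0 of 5 erythrocyte ones rose and 3 fell (median -2.05). Of 20 epidermal probe sets 2 rose and 6 fell (median -0.20), and of 12 for cartilage, bone and scale 1 rose and 1 fell (median 0.28). The epidermal sums, without day 14 replicate B of batch 1, went from 61811–75060 to 94547–106147 in batch 1. In batch 2 they overlapped, with 19438–87138 and then 62913–79209. Over all probe sets 22.2% rose and 17.0% fell. Of 24 skeletal muscle probe sets 6 rose and 4 fell, shares near these, with a median of 0.25. The fit held day 14 replicate B of batch 1, where 11 of the 24 were highest and the 24 summed to 164503. Without that array the sums overlapped. They were 9376 to 41790 at days 0–1 and 15190 to 22741 at days 10–14 in batch 1. In batch 2 they were 7567 to 35712 and then 4940 to 26662.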
